A study of Mus musculus with 6 samples.

Results

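The sarcomere genes code for the proteins of the contractile unit of striated muscle, and they are described here by the Ago2 peaks that lie over their exons. The members were 53 gene symbols for filament proteins, their regulators, Z-disc and M-band proteins and a few proteins that build or attach the sarcomere. GENCODE M21 (mouse build mm10) holds 52 of them (no gene has the symbol Capz), and 45 had at least 1 peak overlapping an exon in the 5 libraries with narrow peaks, out of 13241 genes with such a peak. The study immunoprecipitated Ago2, the microRNA-binding protein of the RNA-induced silencing complex (RISC), from mouse myocytes grown from primary satellite cells (MSC), the stem cells of skeletal muscle, and sequenced the bound RNA. Myocytes kept for 30 h in differentiation medium (DM) received miR-222 duplex RNA or, as control, siGFP duplex RNA, and were lysed after 16 h more in DM. The labels give 10 nM of duplex, and the methods of the study give another concentration. The 6 libraries came from 2 experiments: experiment 1 gave miR-222-IP replicate 1 with 2 control-IPs, replicates 1 and 2, and experiment 2 gave miR-222-IP replicate 2 with control-IP replicates 3 and 4. No source states the strain or age of the animals, or that libraries of the same experiment came from separate cultures, so their spread may be technical. The title of miR-222-IP replicate 2 reads miR22, while its condition label reads miR222. The list of control-IP replicate 3 is made of very wide peaks and is treated apart.

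In a sarcomere, thick filaments of myosin slide along thin filaments of actin. Troponin and tropomyosin on the thin filament let myosin bind when calcium rises, nebulin runs along the thin filament, tropomodulin and leiomodin sit at its pointed end, and titin spans from the Z-disc, where alpha-actinin anchors the thin filaments, to the M-band, where myomesin links the thick filaments. Differentiating myocytes switch on these genes together, embryonic and cardiac isoforms first. Ago2 is guided to messenger RNAs mainly by pairing of the microRNA seed, bases 2 to 8, with sites that are often in the 3'UTR. miR-222 is a microRNA of proliferating myoblasts, while miR-206 (which shares its seed with miR-1a) and miR-133b (which shares its seed with miR-133a) are muscle microRNAs.

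The mature sequences of 3 microRNAs, from RefSeq, are shown first with the seed in capitals, followed by stretches of transcript under member peaks that hold the complement of a seed in capitals, written 5' to 3' on the strand of the gene and read from the mm10 genome. They are shown because seed pairing is how RISC finds its targets.
miR-222-3p: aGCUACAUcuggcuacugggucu
miR-206-3p: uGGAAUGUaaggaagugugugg
miR-133b-3p: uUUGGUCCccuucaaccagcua
Myoz2 non-coding exon, chr3:123034146-123034174, minus strand, miR-222 match: tcatcgtcttaATGTAGCatggcacggat
Tpm3 3'UTR, chr3:90099912-90099940, plus strand, miR-206 match: aaccatttttaACATTCCaagcacttctg
Tpm2 3'UTR, chr4:43514945-43514973, minus strand, miR-206 match: agtgtctcctaACATTCCtaacatggttt
Xirp1 3'UTR, chr9:120014267-120014295, minus strand, miR-133b match: atgtggaacaaGGACCAAgaaaaaaacgt
Myl6b coding sequence, chr10:128495143-128495171, minus strand, miR-133b match: gccaagaaccgGGACCAAggcacatatga
Ttn coding sequence, chr2:76868366-76868394, minus strand, miR-133b match: cctggtacaaaGGACCAAcagagctgact

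Sarcomere transcripts were far more densely covered by peaks in miR-222-IP replicate 2 than in any other narrow-peak library. Exonic peaks of the members numbered 32, 38 and 32 in control-IP replicates 1, 2 and 4, and 60 and 365 in the miR-222-IPs. The peak lists also differed in length, with 10579, 20000 and 17892 peaks in these control-IPs against 21074 and 37762. Per 1000 listed peaks, the members took 3.02, 1.90 and 1.79 peaks in the control-IPs against 2.85 and 9.67, so the share in miR-222-IP replicate 2 was 3.20 to 5.40 times that in the other 4, and miR-222-IP replicate 1 lay between the control-IPs of its own experiment. Members with a peak numbered 18, 19 and 18 in the control-IPs against 24 and 45. Of the 13241 genes with an exonic peak in any narrow-peak library, 45.7%, 71.6% and 62.4% had one in the control-IPs against 69.5% and 94.5%, so more genes of every kind were listed in miR-222-IP replicate 2. When each list was reduced to its 10579 highest peaks, the numbers of members were 18, 9 and 8 against 13 and 36, and miR-222-IP replicate 2 still stood apart. The numbers of all genes with an exonic peak were then 6046, 6497 and 5863 against 6025 and 6639. The value of a peak is the −log10 p given by the peak caller for that library, at least 20 for every peak, and is called the peak score below. It is neither a read count nor a level of expression, and the depth of each library is not known from the files (the methods give an average over samples). In bulk RNA, fewer cells of a type and less RNA per cell cannot be told apart.

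**Figure D1:**
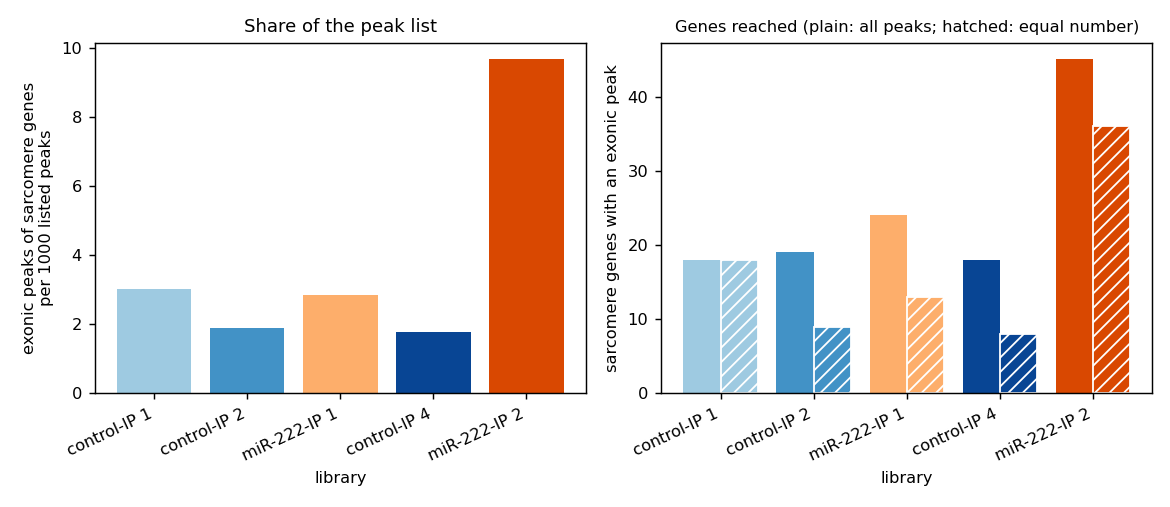
The left panel plots the exonic peaks of sarcomere genes per 1000 listed peaks (vertical axis) in each of the 5 narrow-peak libraries (horizontal axis), and the right panel the number of sarcomere genes with a peak, over all listed peaks (plain bars) and over the 10579 highest peaks of each library (hatched bars). Blue bars are control-IPs and orange bars miR-222-IPs, and miR-222-IP replicate 2, at 9.67 per 1000 and 45 genes, is above the other 4 libraries in both panels.

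A peak in at least 1 miR-222-IP with none in the 3 narrow-peak control-IPs was found for 22 of the 45 members, beside 19.3% of all 13241 genes with an exonic peak. Of these, 21 had their peaks in miR-222-IP replicate 2 alone (15.3% of all genes). Only Myl6b had peaks in both miR-222-IPs and in no narrow control-IP (3.51% of all genes). No member had a peak in a control-IP and in neither miR-222-IP (4.31% of all genes), and none was seen in miR-222-IP replicate 1 alone (0.453%). Peaks in all 5 libraries were found for 15 members (39.9% of all genes). With equal numbers of peaks per list, 18 of the 36 members that still had a peak lacked one in the control-IPs (7.53% of genes), 17 of them being in miR-222-IP replicate 2 alone (5.49%), and 8 had a peak in all 5 libraries (44.4%). At a stricter score threshold of 50, 35 of 42 members lacked a peak in the narrow control-IPs (35.3% of genes) and 3 had one in all 5 libraries (23.5%). The count therefore rests on 1 library: without miR-222-IP replicate 2, 24 members had a peak and 1 lacked it in the control-IPs.

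Control-IP replicate 3, from the same experiment as miR-222-IP replicate 2, held 3619 peaks with a median width of 32103 bp, wide enough to span whole genes. Its list covers 10 chromosomes, the last of them in part, and 23 members lie in this region. All 23 were under one of its peaks, beside 94.5% of the genes in this region that had an exonic peak in another library and 60.8% of all its protein-coding genes. Of the 22 members with no peak in a narrow control-IP, 11 lie in this region and all 11 were under a wide peak (88.0% of the genes of the region with the same pattern). Counting these as control peaks leaves 11 of the 22, which are on chromosomes that the list does not cover. Scores of the wide peaks over members ran from 20.5 to 281 with a median of 116. The median was 94.9 over the genes in the region that had an exonic peak in another library and lay under a wide peak. They can span several genes: Myh1, Myh2 and Myh4, the adult fast myosin heavy chains, share 1 wide peak of 87043 bp that scored 83.3. An exception is a 545 bp peak at the first exon of Actn2 (chr13:12340253-12340797), which scored 281 in control-IP replicate 3. At this exon miR-222-IP replicate 2 had a peak of 143, control-IP replicate 4 one of 24.0 and miR-222-IP replicate 1 one of 30.0.

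**Figure D2:**
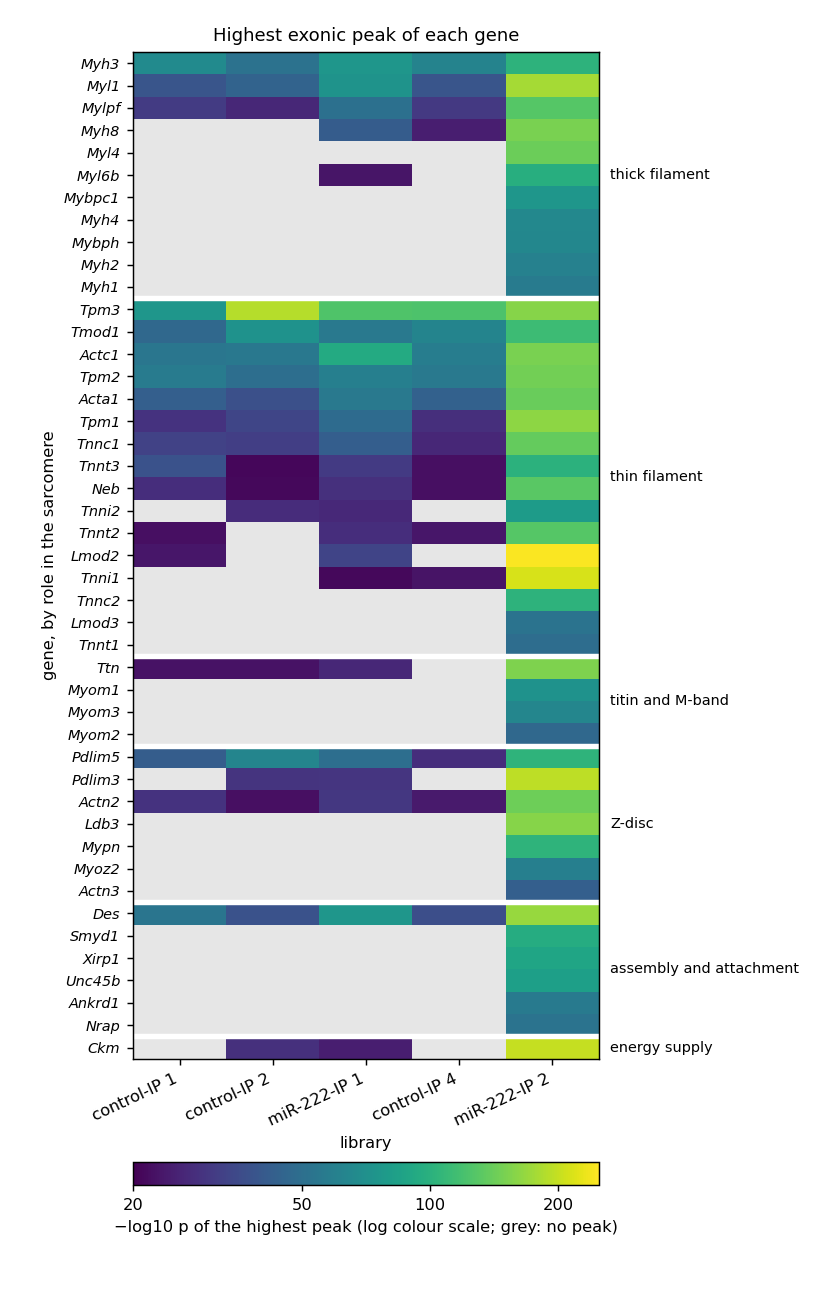
The heat map gives, for each of the 45 sarcomere genes with a peak (rows, grouped by role) and each narrow-peak library (columns), the −log10 p of the highest exonic peak on a log colour scale, with grey for no peak. The column of miR-222-IP replicate 2 is filled for all 45 genes, while 21 rows are grey in the 4 other columns.

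Of the 13 thick filament genes, 11 had a peak, 3 of them in all 5 libraries and 6 in miR-222-IP replicate 2 alone. Myh3, the embryonic myosin heavy chain, was among the 3, and its highest peak scored 67.2, 51.6 and 62.0 in the control-IPs (replicates 1, 2 and 4, an order kept below) and 75.4 and 102 in the miR-222-IPs (replicates 1 and 2, likewise). Both miR-222-IPs were above the control-IPs before scaling, but after scaling of the libraries the groups overlapped. The scale factors were 0.690, 1.01 and 0.952 for the control-IPs and 1.03 and 1.55 for the miR-222-IPs. Unscaled scores were therefore in general higher in miR-222-IP replicate 2, and the share of all genes without overlap before scaling was not computed. Myl1, a fast-muscle alkali light chain, scored 39.0, 44.5 and 38.8 in the control-IPs and 73.5 and 178 in the miR-222-IPs. The 178 was a 3'UTR region called in miR-222-IP replicate 2 alone. Over exons 3 and 4, where the highest peaks of the other libraries lay, miR-222-IP replicate 2 scored 96.7 and 113. Mylpf, the fast regulatory light chain, scored 30.9, 26.5 and 30.4 against 50.9 and 129. For both light chains the miR-222-IPs were above the control-IPs, before and after scaling (after scaling, 10.5% of all genes with a peak in all 5 libraries). Myh8, the perinatal heavy chain, had peaks of 24.6 in control-IP replicate 4 and of 41.7 and 149.7 in the miR-222-IPs, and none in the control-IPs of experiment 1. Myl6b, an alkali light chain of slow muscle and non-muscle cells, scored 23.1 and 97.1 in the miR-222-IPs. The members seen in miR-222-IP replicate 2 alone were the adult fast heavy chains Myh1 (57.3), Myh2 (60.5) and Myh4 (65.2), the embryonic and atrial light chain Myl4 (142), the myosin-binding protein H gene Mybph (64.3) and the slow myosin-binding protein C gene Mybpc1 (75.1). No narrow peak was found over Myh7, the slow heavy chain, or Mybpc2, the fast myosin-binding protein C gene.

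Of the 17 annotated thin filament genes, 16 had a peak, 9 of them in all 5 libraries, so this role was the best covered in the control-IPs. Actc1, the cardiac actin that embryonic skeletal muscle also makes, scored 54.1, 54.7 and 58.3 in the control-IPs and 93.3 and 150.4 in the miR-222-IPs. Acta1, the skeletal muscle actin, scored 43.2, 37.0 and 44.0 against 55.3 and 141. In both actin genes the miR-222-IPs were above the control-IPs, and after scaling this held for Actc1 only (10.5% of all genes with a peak in all 5 libraries). Tpm1, an alpha-tropomyosin gene, scored 28.9, 33.9 and 28.2 in the control-IPs and 48.4 and 163 in the miR-222-IPs. These did not overlap before or after scaling, as for the same 10.5% of genes. Tpm2, beta-tropomyosin, scored 57.0, 49.8 and 55.6 against 59.5 and 146, a difference in rank that scaling removed. Tpm3, whose slow-muscle product is one of several, scored 75.7, 189 and 124 in the control-IPs and 125 and 158 in the miR-222-IPs, and the groups overlapped fully. Tmod1, the tropomodulin that caps the pointed end, likewise overlapped, with 47.0, 72.3 and 62.5 against 55.3 and 113. Its single region seen in all libraries, in the 3'UTR, also overlaps an exon of Tstd2, so the peak cannot be given to 1 of the 2 genes. Tnnc1, the slow and cardiac calcium-binding troponin, scored 32.8, 31.9 and 26.4 in the control-IPs and 42.7 and 138 in the miR-222-IPs, which after scaling overlapped. Tnnt3, the fast tropomyosin-binding troponin, scored 37.6, 20.9 and 22.1 against 30.7 and 101, so that control-IP replicate 1 exceeded miR-222-IP replicate 1.

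The other thin filament genes were seen in fewer libraries. Tnnt2, the cardiac and embryonic troponin T, had peaks of 22.1 and 23.3 in control-IP replicates 1 and 4 and of 27.9 and 129 in the miR-222-IPs. Tnni1, the slow inhibitory troponin, had 22.9 in control-IP replicate 4 and 21.1 and 214 in the miR-222-IPs. For Tnni2, its fast counterpart, peaks of 27.4, 26.6 and 79.7 were listed in control-IP replicate 2 and the miR-222-IPs. In these 3 troponin genes the peaks outside miR-222-IP replicate 2 ran from 21.1 to 27.9, near the lower limit of 20. Lmod2, a leiomodin that elongates thin filaments, had 23.2 in control-IP replicate 1 and 33.6 and 247 in the miR-222-IPs. Tnnt1 (49.5), Tnnc2 (102.7) and Lmod3 (52.4) were seen in miR-222-IP replicate 2 alone, and the peak of Tnnc2 also overlaps an exon of Ube2c. Tmod4 had no peak.

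The giant genes carried the most peaks. Ttn, which codes for titin, had 2, 1 and 0 exonic peaks in the control-IPs and 7 and 64 in the miR-222-IPs. Its highest scores were 22.6 and 22.7 in the first 2 of these libraries and 26.4 and 154 in the miR-222-IPs. Thus the peaks of titin outside miR-222-IP replicate 2 were all near the limit. Neb, which codes for nebulin, had 1, 1 and 2 peaks in the control-IPs and 4 and 58 in the miR-222-IPs, with highest scores of 27.7, 21.1 and 22.2 against 28.4 and 131. The 64 peaks of titin reached 84 of the 347 exons of its transcript with the longest coding sequence (24.2%), beside 3, 1 and 0 exons in the control-IPs and 11 in the other miR-222-IP. Those of nebulin reached 75 of 157 exons (47.8%), beside 2, 2 and 2 in the control-IPs and 5 in the other miR-222-IP. In miR-222-IP replicate 2 the titin exons under a peak had a median length of 279 bp and the other exons 216 bp, while in nebulin the medians were 108 and 105 bp. The strongest titin region was exon 4 (chr2:76974822-76975286), scoring 22.7 in control-IP replicate 2 and then 26.4 and 154 in the miR-222-IPs. The nebulin region over exons 53 and 54 was the only region of either gene called in all 5 libraries, at 27.7, 21.1 and 22.2 in the control-IPs and 27.4 and 131 in the miR-222-IPs. The 3 myomesin genes, Myom1 (72.6), Myom2 (47.2) and Myom3 (64.0), were seen in miR-222-IP replicate 2 alone.

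**Figure D3:**
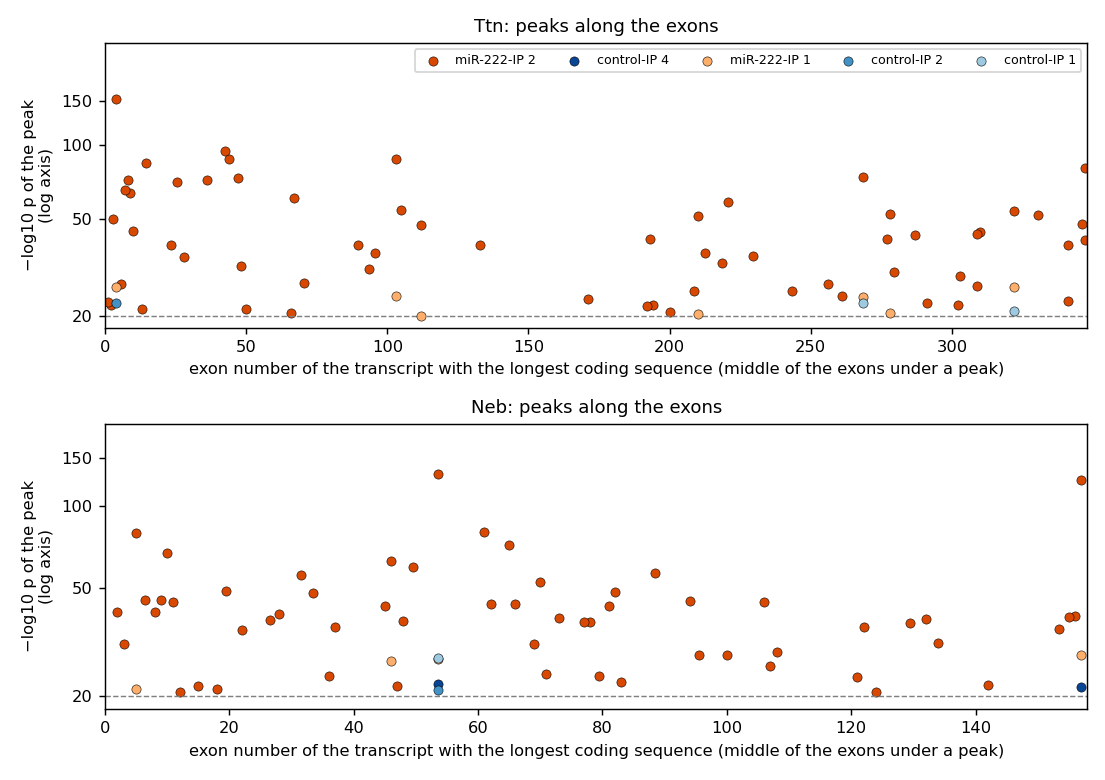
Each point is an exonic region of Ttn (top) or Neb (bottom) with a peak, placed by the exon number in the transcript with the longest coding sequence (horizontal axis) and the −log10 p of the peak (vertical log axis), coloured by library, with the lower limit of 20 as a dashed line. Points of miR-222-IP replicate 2 run along both transcripts up to 154 and 131, while those of the other libraries are few and lie under 30.

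Of the 11 Z-disc genes, 7 had a peak, 2 of them in all 5 libraries. Actn2, the muscle alpha-actinin, scored 28.9, 22.3 and 24.0 in the control-IPs and 30.0 and 143 in the miR-222-IPs. It had 18 regions, of which 12 were called in miR-222-IP replicate 2 alone, and 18 of its 21 exons were under a peak there. Pdlim5, a PDZ and LIM protein that binds alpha-actinin, scored 41.9, 63.2 and 27.8 in the control-IPs against 49.7 and 104. The relative Pdlim3 scored 29.3 in control-IP replicate 2 and 29.5 and 194 in the miR-222-IPs. Pdlim5 overlapped between the groups, and Pdlim3 did not pass the limit in 2 of the 3 narrow control-IPs. Ldb3 (158), which codes for the PDZ protein ZASP, Mypn (103), for myopalladin, Myoz2 (59.3), for a calcineurin-binding Z-disc protein, and Actn3 (42.8), for the fast-fibre alpha-actinin, were seen in miR-222-IP replicate 2 alone. Tcap, Myoz1, Myot and Csrp3 had no narrow peak.

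Of the 6 genes for assembly and attachment, only Des had peaks outside miR-222-IP replicate 2. Des, the intermediate filament protein desmin that ties neighbouring myofibrils together, scored 53.4, 37.7 and 36.6 in the control-IPs and 75.8 and 169 in the miR-222-IPs. Both miR-222-IPs were above the control-IPs, although after scaling control-IP replicate 1 (77.4) exceeded miR-222-IP replicate 1 (73.3). The myosin chaperone Unc45b (83.4), the myosin-associated methyltransferase Smyd1 (95.7), the actin-binding Xirp1 (87.9), the attachment protein Nrap (52.5) and the stress-responsive Ankrd1 (56.7) were seen in miR-222-IP replicate 2 alone. Ckm, the muscle creatine kinase that regenerates ATP at the sarcomere, had peaks of 28.3 in control-IP replicate 2 and 24.6 and 200.1 in the miR-222-IPs.

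Isoform classes were counted by how many of their genes had a peak, as a description without a test. All 6 genes of the list of developmental isoforms (Myh3, Myh8, Myl4, Actc1, Tnnt2 and Myl6b, the last better known from slow muscle) had a peak, 2 of them in all 5 libraries and 1 in miR-222-IP replicate 2 alone. Of 11 fast isoforms, 9 had a peak, 3 in all 5 libraries and 5 in miR-222-IP replicate 2 alone. Of 7 slow isoforms, 6 had a peak, 2 in all 5 libraries and 3 in miR-222-IP replicate 2 alone. Developmental isoforms were called in 3, 2 and 4 genes in the control-IPs, fast isoforms in 3, 4 and 3, and slow isoforms in 2, 2 and 3.

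The comparison of miR-222-IP with control-IP asks which transcripts have higher peaks in RISC-bound RNA when miR-222 is in excess. None of the 6 libraries is of input RNA, so more binding and more transcript in the cells cannot be told apart. It was made per gene on the log2 of the highest peak score, over the 5283 genes with a peak in all 5 narrow-peak libraries, which include the 15 members named above for that. No gene passed limma with Benjamini-Hochberg adjustment (0.0% of genes called at an adjusted p under 0.05), and the lowest adjusted p of a member was 0.999. At an unadjusted limma p under 0.05 there were 4 members, Tpm1, Myl1, Mylpf and Des, and 104 genes in all (1.97%). Tpm1 had the largest difference among the members, 0.97 ± 0.40 (SE, log2), with an unadjusted limma p of 0.032. The highest peak of a gene was not always the same region in each library, and Tpm1, Actn2 and Pdlim5 had no region called in all 5. Over exon 5 of Tpm1 the scores were 28.9 and 33.9 in control-IP replicates 1 and 2 and 48.4 and 63.9 in the miR-222-IPs. Control-IP replicate 4 had no peak there. The difference of Myl1 was 0.93 ± 0.37, that of Des 0.90 ± 0.42 and that of Mylpf 0.89 ± 0.39. The lowest were Tpm3 at −0.29 ± 0.37, Tmod1 at −0.15 ± 0.35 and Myh3 at 0.03 ± 0.38. An exact permutation of the library labels within experiments (two-sided) gave p from 0.333 to 1 for the 15 members, and this design cannot give a p below 0.167.

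The size of the difference was unlike in the 2 experiments, a contrast that was not tested. Over the 15 members the median scaled log2 difference was 0.05 in experiment 1, with a range from −0.39 to 0.52, and 1.38 in experiment 2, with a range from −0.35 to 1.88. For all 5283 genes the medians were −0.01 and 0.01. In experiment 2, 14 of the 15 members were above 0 (2698 of all 5283 genes were). Above 1 were 9 members (2.84% of all genes), whereas in experiment 1 none was above 1. The 9 were Actn2 (1.88), Neb (1.86), Tpm1 (1.83), Tnnc1 (1.69), Des (1.51), Myl1 (1.50), Tnnt3 (1.49), Mylpf (1.38) and Pdlim5 (1.20). Their highest scores in control-IP replicate 4 ran from 22.1 (Tnnt3) to 38.8 (Myl1). Peaks under 20 are not listed, so genes near this limit have more room to rise than to fall. A difference above 0 in both experiments was found for 8 of the 15 members (28.0% of all genes). Both miR-222-IPs were above all 3 narrow control-IPs for 4 members, Myl1, Mylpf, Actc1 and Tpm1 (10.5% of all genes), and below them for none (11.5%). The difference between control-IP replicates 1 and 2, which share a condition, had an SD of 0.75 over all genes and, replicate 1 minus replicate 2, a median of 0.74 and a range from −0.78 to 1.39 over the 15 members, and no member differed by as much as this SD in experiment 1. Experiment 2 has 1 control-IP with narrow peaks, which leaves its differences without a replicate. Members that passed the filter of a peak in every library are those with peaks in the control-IPs, and the 21 seen in miR-222-IP replicate 2 alone do not enter this comparison.

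**Figure D4:**
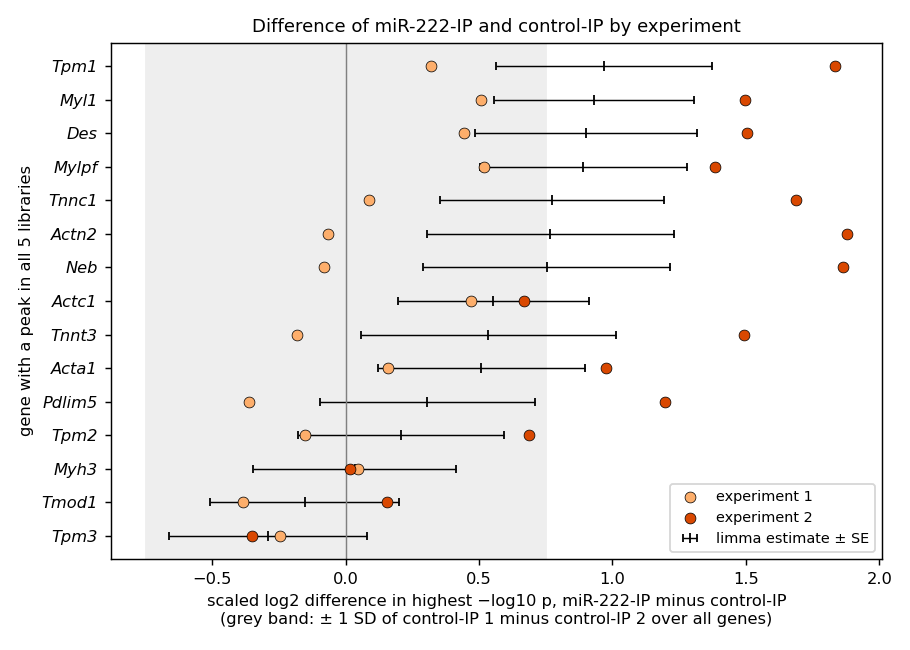
For the 15 sarcomere genes with a peak in all 5 libraries (vertical axis), points give the scaled log2 difference in highest −log10 p between miR-222-IP and control-IP (horizontal axis) in experiment 1 (light orange) and experiment 2 (dark orange), with the limma estimate ± SE in black and a grey band of ± 0.75, the SD of control-IP replicate 1 minus replicate 2 over all genes. All 15 points of experiment 1 lie inside the band and 10 points of experiment 2 lie beyond it.

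The overlapping peaks of the 5 libraries were merged into 366 member regions in 45 genes. Of these, 299 (81.7%) were called in miR-222-IP replicate 2 alone, against 30.5% of 41325 regions over all genes, and 20 (5.46%) were called in all 5 libraries, against 20.3%. The 20 lie in 12 genes. Actc1 has 4 of them, and over its exon 3 (chr2:114050213-114050690) the scores were 51.3, 54.7 and 58.3 in the control-IPs and 93.3 and 150.4 in the miR-222-IPs. In 65 regions miR-222-IP replicate 2 shared the call with another library, and it had the highest unscaled score in 58 of them (89.2%), against 74.4% of 25543 such regions over all genes. After scaling of the libraries it was the highest in 48 (73.8%), against 30.3%. Among the 7 exceptions before scaling are the coding region of Tpm2 over exons 3 to 5 (chr4:43519131-43519821), with 57.0, 49.8 and 55.6 in the control-IPs and 59.5 and 41.4 in the miR-222-IPs, and the last exon of Tpm3 (chr3:90099465-90100926), highest in control-IP replicate 2 at 189. In another part of Tpm2, its first exon (chr4:43523144-43523532), the order was the other way, with 34.8, 25.6 and 30.6 against 47.3 and 146. Over all members, 51, 51 and 46 of 1325 exons were under a peak in the control-IPs and 87 and 464 in the miR-222-IPs. The last exon was reached in 35 of 45 genes in miR-222-IP replicate 2.

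Peaks of sarcomere genes lay mostly inside coding sequence. Over the 5 libraries, 386 of 527 member peaks (73.2%) touched coding sequence only, 57 (10.8%) coding sequence and 3'UTR, 27 (5.12%) 3'UTR only and 57 (10.8%) included 5'UTR. For all protein-coding genes the shares were 55.2%, 20.6%, 14.8% and 8.96%. Within the control-IPs the share in coding sequence only was 61.8% (63 of 102 peaks) against 50.8%, in miR-222-IP replicate 1 63.3% against 54.9%, and in miR-222-IP replicate 2 78.1% against 61.0%. These are counts of peaks without a test, and Ttn and Neb alone hold 121 of the 366 regions, 114 of them in coding sequence only.

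**Figure D5:**
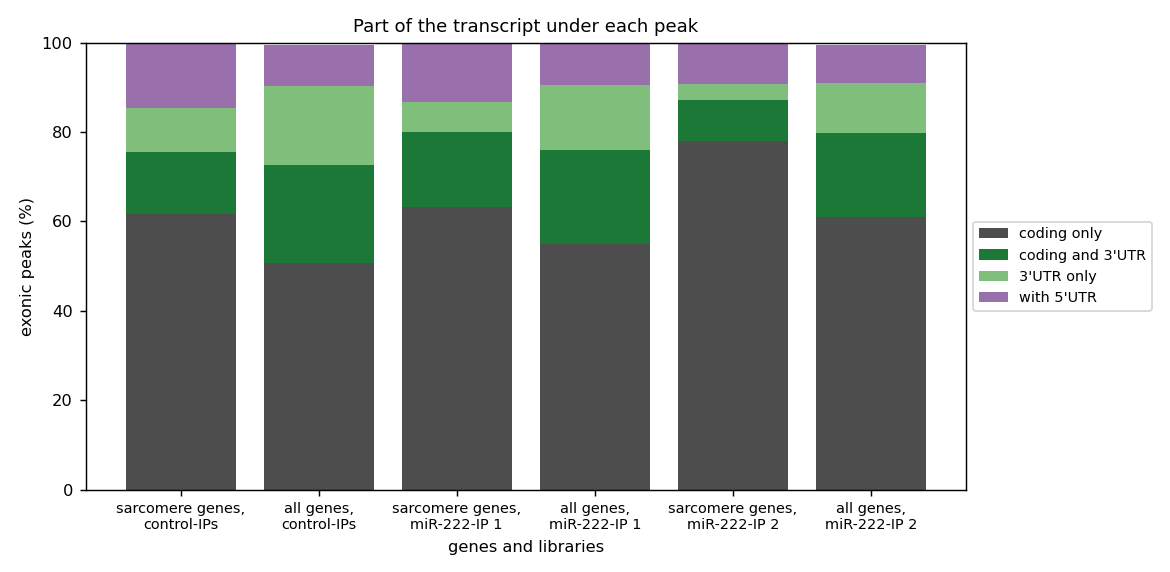
Stacked bars give the share of exonic peaks (vertical axis, %) that touch coding sequence only, coding sequence and 3'UTR, 3'UTR only or 5'UTR, for sarcomere genes and for all protein-coding genes (horizontal axis) in the 3 narrow control-IPs and in each miR-222-IP. Peaks over non-coding exons only, under 0.6% of all peaks in every bar, are not drawn, and in each pair the sarcomere genes have the larger coding-only share, up to 78.1% in miR-222-IP replicate 2.

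Few member regions held a match to the miR-222 seed. The letters ATGTAGC on the strand of the gene were found in 2 of 366 member regions (0.546%), against 1.90% of regions over all genes. Of the 2, 1 is described here. In Myoz2 the match lies in an exon of a non-coding transcript, under a peak of 29.8 in miR-222-IP replicate 2 alone. For miR-206 the letters ACATTCC were in 6 regions of 5 genes (1.64% against 2.82%), and for miR-133b GGACCAA was in 14 regions of 7 genes (3.83% against 2.94%). The Tpm3 match to miR-206, in the 3'UTR, was under a peak in all 5 libraries, and the other 5 matches, in Ttn, Tpm2, Pdlim3 and Myom1, were under peaks of miR-222-IP replicate 2 alone. Of the miR-133b matches, 8 are in Ttn and 1, in Xirp1, is in a 3'UTR, and the match of Myl6b was under the peaks of both miR-222-IPs. A match is a description of the letters under a peak and does not show binding.

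Some members share sequence with other genes, and the handling of reads with several alignments is not given in the sources used here. Windows of 100 bases were taken from the transcript of each member with the longest coding sequence. Of those of Tpm3, 45.7% also occur in Tpm3-rs7. The shares were 9.73% for Myh1 and 9.17% for Myh2, mostly with each other, 6.61% for Myh8, 3.85% for Myh4, 1.15% for Myh3 and 9.36% for Myl1. Values of these genes are therefore uncertain, and the share over all their exons was not counted. Of the 366 regions, 8 also overlap an exon of another gene.

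Sarcomere and related genes outside the member list were counted in the same way. This list also holds genes that other cell types use, such as the capping protein genes Capza1, Capza2 and Capzb. Of 38, 26 had an exonic peak and 12 had none, and of the 26, 6 had peaks in all 5 libraries and 14 in miR-222-IP replicate 2 alone, beside 15 and 21 of the 45 members. The 6 were Actn4, Capza1, Capza2, Capzb, Cryab and Tmod3. All 10 myocyte markers had a peak, 4 in all 5 libraries and 4 in miR-222-IP replicate 2 alone, among them Myog (75.7), the myogenic factor myogenin. The summed highest scores of these 10 were 240 to 313 in the narrow control-IPs, and 347 and 1008.5 in the miR-222-IPs. These sums, like those below, are not scaled between libraries. Mef2c was the highest of the 10 in each narrow control-IP, at 120, 194 and 189, and scored 168 and 175 in the miR-222-IPs. Markers of other cells were also present. The 6 cardiac markers, Myh6, Nppa, Nppb, Tnni3, Mybpc3 and Myl7, had no peak. Smooth muscle markers had peaks in 2 of 5 genes, with sums of 60.2 to 67.4 in the control-IPs, 86.1 and 188 in the miR-222-IPs and none over Myh11, Cnn1 and Actg2. Fibroblast markers had peaks in 4 of 6, with sums of 0 to 20.7, 40.2 and 96.5 and none over Col1a1 and Dcn. Endothelial markers had peaks in 2 of 5, with sums of 26.1 to 106, 29.8 and 58.0, and none over Kdr, Tek and Vwf. Leukocyte markers had peaks in 4 of 5, with sums of 513 to 655, 602 and 608 and none over Cd3e, and neural markers in 5 of 5, with 299 to 576, 474.5 and 334. After scaling, the leukocyte markers with a peak in every library were lower in miR-222-IP replicate 2 than in control-IP replicate 4, by log2 differences of −0.76 for Adgre1, −0.94 for Cd68 and −0.93 for Csf1r, while the median of the 15 members in experiment 2 was 1.38. The part of these cell types, and of the longer peak list of miR-222-IP replicate 2, in the values of the sarcomere genes was not tested.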

How the data were processed

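RNA bound to Ago2 was measured in 6 libraries. Per the methods and labels, the authors aligned reads to mm10 with SOAPSplice, converted them with bedtools, called peaks in each library with MACS2 and deposited each peak with its −log10 p where this exceeded 20. The MACS2 version and any control track are not given in the sources used here. The deposited −log10 p values hold no counts, the methods give read depth as an average over samples only, so no counting interval can be given per library, and the number of peaks is given for each instead.

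Peaks were joined to GENCODE M21 exons by at least 1 bp (Python 3.11.15, pandas 2.3.3, pysam 0.24.0). A gene's value is the highest −log10 p of its exonic peaks. Libraries were scaled by the median of ratios over genes with a peak in all 5 narrow-peak lists, log2 values were fitted with limma 3.58.1 (R 4.3.3, condition plus experiment), and p-values were adjusted over all genes tested. The procedure was tested on simulated data. Single members were tested by exact permutation within experiments. Transcript part was taken from all GENCODE M21 transcripts. Exon numbers refer to the transcript with the longest coding sequence.

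The members and all gene lists were chosen with earlier results of these data known, so counts over them are descriptions. Genes were named where they were the 3 highest of a role by median score, had a peak in a miR-222-IP and no narrow control-IP or the reverse, were the 3 highest or lowest by difference, had no peak, were the 3 with the most peaks, or held a miR-222 seed match (some of these items are not reported here). Other members are given for completeness. Alternatives were a score threshold of 50, equal numbers of peaks, more than marginal exon overlap, other gene values and scalings, absent peaks set to 20, no experiment term, other transcripts and each library left out. Counting wide peaks as control peaks was chosen after seeing the data.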

Additional observations from a re-analysis of the deposited data

Results flagged for a closer look

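In the wide-peak library, control-IP replicate 3, which the comparisons do not use, 4 members without any narrow peak were under a peak. The wide peak over Myh7 scored 108 and was 137214 bp long, that over Myoz1 95.7, that over Tcap 70.7 and that over Myot 20.5. A wide peak spans neighbouring genes, so these values cannot be given to the 4 genes.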

How the results depend on the processing

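Of 53 alternative values, 45 kept their direction or call and moved by less than the spread used (for the median, the SD of the difference between control-IP replicates 1 and 2 over the members; counts by less than 1.5 times), and the other 8 follow with the wider range of the median. The number of members with a peak ranged from 24 to 45 when 1 library was left out, 24 being the value without miR-222-IP replicate 2. Members with a peak in all 5 libraries numbered 3 at a threshold of 50 and 8 with equal numbers of peaks, and 15 to 16 with 1 library left out. Members in a miR-222-IP and no narrow control-IP numbered 35 at a threshold of 50, 11 when wide peaks counted as control peaks, and 1 to 25 with 1 library left out, 1 being without miR-222-IP replicate 2. The median log2 difference of the members, 0.55, ranged from −0.015 without control-IP replicate 4, the sole narrow control-IP of experiment 2, to 1.37 without miR-222-IP replicate 1, and was 0.05 without miR-222-IP replicate 2, 0.24 at a threshold of 50 and 0.99 without control-IP replicate 1. With no scaling it was 1.03 (all genes 0.49), and scaled to the list total 0.20 (all genes −0.34), so other scalings moved all genes and the members together. No member passed limma under any of the alternatives. With absent peaks set to 20, 8 of 13241 genes passed, none a member, and 11 members had an unadjusted limma p under 0.05. No paired analysis was possible because the labels number no replicates across the groups; experiment is a term of the fit instead.

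Limits. A −log10 p grows with depth as well as with enrichment, 2 miR-222-IPs were compared with 3 narrow control-IPs, and a peak under 20 is not listed, so no peak does not mean no RNA.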

Other observations

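Genes that turn over or cap sarcomere proteins showed both kinds of pattern. The muscle ubiquitin ligases Trim63 (47.2) and Trim54 (31.4) had peaks in miR-222-IP replicate 2 alone, while the related Trim55 also had a control peak, with 22.6 in control-IP replicate 2 beside 82.7 in miR-222-IP replicate 2. Peaks in miR-222-IP replicate 2 alone were also found for Klhl41 (120.0), a nebulin-binding adaptor, and the small heat shock gene Hspb7 (138). By contrast the capping protein genes Capza1, Capza2 and Capzb, which every cell type uses, had peaks in all 5 libraries. Capzb scored 117, 174 and 155 in control-IP replicates 1, 2 and 4 and 146 and 162 in the miR-222-IPs. Capza2 scored 117, 134 and 147 against 130 and 124, and Capza1 54.7, 144 and 88.8 against 83.8 and 151. Cryab, a small heat shock chaperone of the Z-disc, had peaks in all 5 libraries at 36.9, 62.5 and 33.0 against 72.6 and 217. These genes were chosen from a list of 38 after their values were seen. Other genes of that list went otherwise. Myh7b scored 115 in control-IP replicate 2 beside 37.7 and 75.1 in the miR-222-IPs, and the only narrow peak of Actn1 was in control-IP replicate 2 (20.5).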
